A study of Neurospora crassa with 12 samples.

Results

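Conidia of the filamentous ascomycete Neurospora crassa germinate by swelling, sending out a germ tube that extends at its tip, and then forming the first branches, from which a mycelium grows. The comparison described here is between libraries labelled stage 4, at the onset of hyphal branching, and libraries labelled stage 3, during germ tube extension. It rests on 6 of the 12 libraries of the series (3 per stage) and covers all 10592 genes of the count table, of which 8334 passed the filter on low counts and were tested. Libraries were chosen by their labels.

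All libraries came from the wild-type Oak Ridge strain FGSC2489 (mat A), spread as conidia on cellophane over Bird medium and grown at 37 °C in constant light. A stage was sampled when most spores under the microscope had reached it, so every library also holds spores at other stages, and in such bulk samples fewer cells of a kind and less RNA per cell cannot be told apart. For stage 4 the sample titles give 240 min and the time tags 360 min, and for stage 3 the titles give 120 min and the tags 240 min. The source name also mentions another medium than the growth protocol, potato dextrose agar. The time tags follow the schedule in the paper's methods for that medium at a lower temperature. The titles follow its schedule for Bird medium at the temperature given above. These 2 label fields, source name and tags, thus point to another culture than the titles and the growth protocol. Medium and temperature are taken here from the growth protocol, and were not tested. Stage, time in culture and collection cannot be told apart. Stages 1 (fresh conidia) and 2 (the stage before germ tube extension), with 3 libraries each, entered the fit that gives the spread, are set beside these as levels, and give 2 further comparisons (stage 4 with stage 2, and stage 2 with stage 1).

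Total counts lay between 42996748 and 71990884 per library. Stage 3 replicate 2 stood apart: 2 ribosomal RNA rows, NCU17319 and NCU15719, took 37.7% of its counts, against at most 11.3% in the other libraries, and both rows were left out of all library sizes. Over 5090 genes with at least 10 CPM (counts scaled to a common library total) in every library, the SD of the log2 ratio between libraries was 0.110 for stage 3 replicates 1 and 3, but 0.232 and 0.240 for the pairs that include replicate 2.

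The libraries labelled stage 4 were as close to those labelled stage 2 as to each other, or closer. The SD of the log2 ratio was 0.145 to 0.164 within stage 4, 0.106 to 0.148 between stage 4 and stage 2, and 0.354 to 0.437 between stage 4 and stage 3. The closest pair of all 12 libraries was stage 4 replicate 3 with stage 2 replicate 3. No pair agreed within sampling noise, and no library was counted as a copy of another. The lowest chi-square per gene was 16.4, for that same pair, against 22.6 to 219 for pairs within a stage. The chi-square allows for counting noise alone, so it cannot show whether libraries share material, which was not tested. The quasi-likelihood test of edgeR called 0 of 8334 genes between stage 4 and stage 2. At an unadjusted p below 0.05 there were 138 (1.66%), a smaller share than that limit lets pass when no gene differs. Stage 4 is therefore set apart from stage 2 here by its labels alone, and every direction below takes the labels as given.

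**Figure D1:**
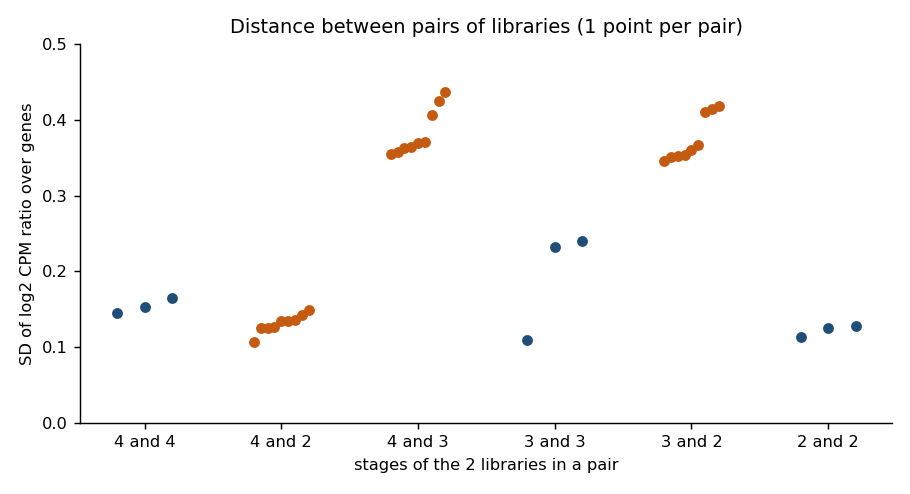
SD over 5090 genes of the log2 ratio of CPM (y axis) for each pair of libraries, grouped on the x axis by the stages of the pair; blue points are pairs within a stage and orange points pairs across stages. Pairs of stages 4 and 2 lie between 0.106 and 0.148, level with the pairs within a stage, while pairs of stages 4 and 3 lie between 0.354 and 0.437.

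Between stage 4 and stage 3, 3249 of the 8334 genes tested (39%) passed an edgeR adjusted p of 0.05. Of these, 1515 (18.2%) were higher and 1734 (20.8%) lower in stage 4. Most changes were small. The median change was 1.32-fold among genes higher and 1.39-fold among genes lower in stage 4, and 69.1% and 60.6% of the calls were under 1.5-fold. A change of at least 2-fold was found for 5.99% of the genes tested, 220 higher (2.64%) and 279 lower (3.35%), and of at least 4-fold for 77 and 58. The 3 libraries of stage 4 lay wholly above those of stage 3 for 25.4% and wholly below for 26.7% of the genes tested, 52.1% in all.

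The genes higher in stage 4 held 39.2% of all CPM in stage 4, against 32.2% in stage 3, and the genes lower held 12.9%, against 18.8%. The split depended on the scaling. When libraries were scaled by their totals, without TMM factors, 1127 genes were higher and 1973 lower. Without stage 3 replicate 2, 2969 genes were called, 1384 higher and 1585 lower, and 2750 of them were also called with it. Among the 220 genes at least 2-fold higher, the stage 2 mean lay on the stage 4 side of the midpoint in 209, and among the 279 at least 2-fold lower in 267. In nearly all of these genes stage 3 was thus the stage that differed from both of its neighbours.

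The change also moved with gene length. In the shortest 1668 genes 12.6% were higher and the median log2 change was −0.06, while in the longest 1666 genes 22.4% were higher and the median was 0.06. Stage 3 replicate 2 differed from the other 2 libraries of its stage along the same scale, with a median log2 difference of 0.10 in the shortest and −0.10 in the longest genes. Its part in the trend with length was not tested.

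**Figure D2:**
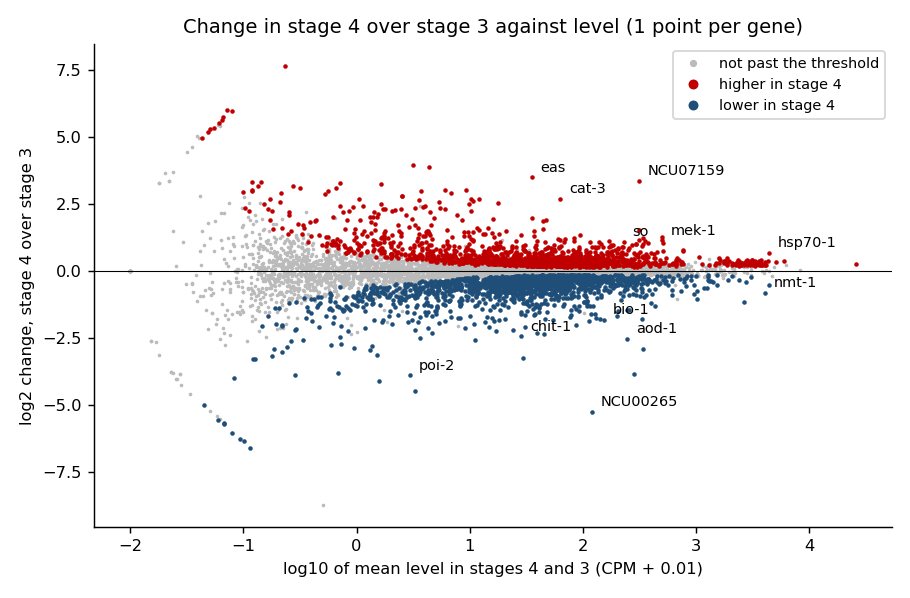
Log2 change in stage 4 over stage 3 (y axis) against the log10 of the mean level in both stages (x axis, CPM + 0.01), 1 point per gene tested; red points are the 1515 genes higher in stage 4, blue points the 1734 lower, grey points those past no threshold. Most coloured points lie near 0, eas, NCU07159 and cat-3 stand above the rest at their level, and NCU00265 and aod-1 below.

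The gene with the largest rise by the naming rule was eas (NCU08457, chromosome II, 3570905 to 3572798 in assembly NC12), which encodes the hydrophobin that coats conidia. It had 51.4, 81.4 and 61.4 CPM in stage 4, against 5.94, 6.17 and 5.23 CPM in stage 3. The log2 change was 3.49 ± 0.15 (SE, edgeR adjusted p = 6.86e-09). The naming rule takes only genes whose libraries of the 2 stages do not overlap, so their separation here was set by it. Stage 3 held the lowest level of the 4 stages, since eas averaged 64.3 CPM in stage 2 and 12232 CPM in stage 1. Its stage 4 level was 0.529% and its stage 3 level 0.0473% of that in fresh conidia.

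Other conidial genes followed the same course. con-6, a small protein abundant in conidia, had 20.1, 23.3 and 19.5 CPM in stage 4, against 4.01, 2.98 and 2.86 CPM in stage 3, and 1152 CPM on average in stage 1 (log2 change 2.67 ± 0.17, adjusted p = 1.31e-07). ccg-1, a glucose-repressible gene under the circadian clock, had 15.5, 18.0 and 17.6 CPM in stage 4, against 3.33, 4.76 and 3.01 CPM in stage 3 (2.21 ± 0.18). con-10 stayed low, with 1.88, 2.62 and 2.70 CPM in stage 4, against 0.426, 0.803 and 0.593 CPM in stage 3 (1.99 ± 0.27), and con-8 rose by 2.37 on the log2 scale. In none of these did the libraries of the 2 stages overlap. The same held for 1475 of the 1515 genes called higher, so it adds little to the calls. For con-6 the naming rule required it. Among all genes tested, 25.4% had stage 4 wholly above stage 3.

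Not every gene of conidiation moved that way. Of 20 listed, 8 were higher (40%, beside 18.2% of all genes) and 5 lower (25%, beside 20.8%) in stage 4, and their median log2 change was 0.10, beside −0.0014 over all genes tested. The regulators ada-6 and ada-1, transcription factors, and acon-3 and ve-1 were among those lower. ada-6 had 10.3, 9.78 and 7.23 CPM in stage 4, against 31.5, 28.2 and 34.9 CPM in stage 3 (−1.79 ± 0.12, adjusted p = 1.82e-07). ccg-9, a trehalose synthase gene, fell by 2.88 at levels under 2 CPM. The summed level of the list was 2459 to 2590 CPM in stage 4 and 2325 to 2718 CPM in stage 3, against 18078 to 20717 CPM in stage 1, and con-13 was at 0 in every library of stages 2, 3 and 4. The ranges of stages 4 and 3 overlapped in this sum, and the part of ungerminated or newly formed conidia in the changes above was not tested.

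The catalase genes cat-3 and cat-1 and a glucose transporter gene rose alongside. cat-3, the catalase of growing hyphae, had 106, 120 and 102 CPM in stage 4, against 18.5, 14.9 and 17.7 CPM in stage 3 (log2 change 2.68 ± 0.17, adjusted p = 1.01e-07). cat-1, the catalase of conidia, had 13.2, 20.4 and 16.4 CPM in stage 4, against 3.09, 2.47 and 3.34 CPM in stage 3 (2.47 ± 0.15). hgt-1, a high-affinity glucose transporter, had 62.9, 72.2 and 87.0 CPM in stage 4, against 19.6, 20.8 and 19 CPM in stage 3 (1.90 ± 0.12). All 3 were higher still in stage 1, hgt-1 at 1625 CPM. Among the largest rises by rule were also genes known here only by their IDs. NCU07159 had 574, 688 and 443 CPM in stage 4, against 59.0, 53.8 and 54.4 CPM in stage 3 (3.35 ± 0.17, adjusted p = 2.75e-08). NCU01107, NCU01064, NCU04415 and NCU04539, with 10.7 to 17.7 CPM on average in stage 4, rose by 3.01, 3.00, 2.91 and 2.67.

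The largest fall by the same rule was that of NCU00265 (chromosome III, 3218739 to 3220987). It had 6.73, 5.63 and 5.91 CPM in stage 4, against 248, 188 and 266 CPM in stage 3, and 6.36 CPM on average in stage 2. The log2 change was −5.26 ± 0.14 (edgeR adjusted p = 7.58e-11). The gene was thus seen at a high level in stage 3 alone among the 4 stages. NCU09165, NCU00149, NCU05958, NCU17064 and NCU01579 were also named by it, with log2 changes of −2.59 to −2.15.

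aod-1, the alternative oxidase that passes electrons from ubiquinol to oxygen around complexes III and IV of the respiratory chain, was next to these. It had 92.0, 68.5 and 55.6 CPM in stage 4, against 441, 422 and 387 CPM in stage 3 (−2.53 ± 0.17, adjusted p = 1.71e-07), and 66.7 CPM on average in stage 2. aod-3, a second oxidase gene, fell by 1.00, and aod-2, a regulator of aod-1, rose by 0.23 (adjusted p = 0.0152), a call that was lost with library totals and without stage 4 replicate 3 (0.0588 at most over the alternatives). chit-1, a chitinase, had 8.09, 8.64 and 9.57 CPM in stage 4, against 50.3, 27.2 and 65.9 CPM in stage 3 (−2.45 ± 0.25). The stage 3 libraries of chit-1 were far apart, and all lay above stage 4, as the naming rule required.

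Among genes with a symbol, chosen after their values were seen, bio-1, of biotin synthesis, and gcy-1, a glycerol dehydrogenase, fell by 1.82 and 1.77. bio-1 had 64.6, 66.4 and 72.6 CPM in stage 4, against 230, 252 and 238 CPM in stage 3. pks-3, a polyketide synthase gene, fell by 1.50. It was the 1 of 5 tested polyketide synthase genes called lower (20%, beside 20.8% of all genes), and 0 were higher (beside 18.2%). There were 2 lower without stage 4 replicate 3. The near neighbours of pks-3 on chromosome IV (517962 to 539552), ada-6 and NCU04862, fell as well, by 1.79 and 1.70. pks-3 had 15.9, 15.5 and 19 CPM in stage 4, against 46.8, 44.6 and 51.4 CPM in stage 3.

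**Figure D3:**
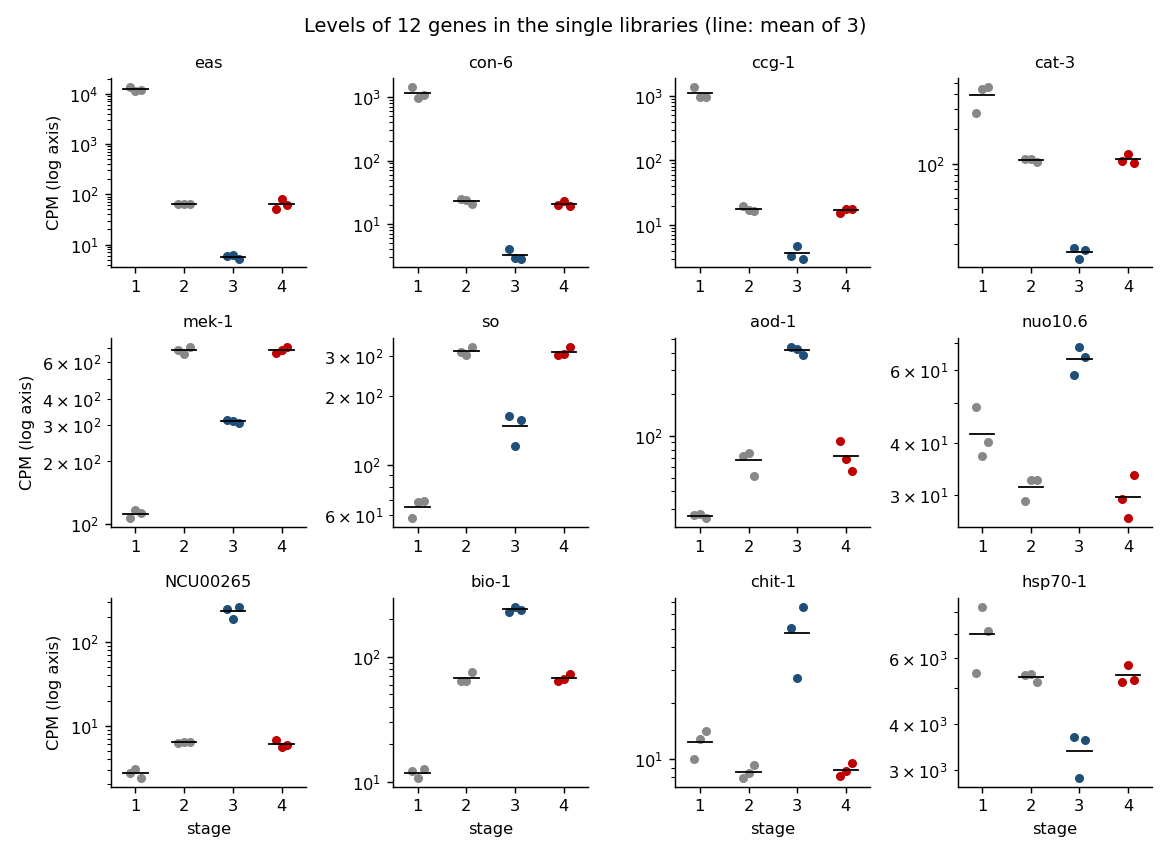
Level in CPM (y axis, log scale) of 12 genes in each library of stages 1 to 4 (x axis); points are libraries, red for stage 4, blue for stage 3 and grey for stages 1 and 2, and lines are means of 3. In each gene the stage 4 points lie level with stage 2 and apart from stage 3, as in eas with 51.4 to 81.4 CPM in stage 4 and 5.23 to 6.17 CPM in stage 3.

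The lists of functional genes differed widely in how many members were called, as the bars by list show. Among lists with over 10 tested members the greatest shares were those of complex I, in which 26 of 29 members (89.7%) were lower in stage 4, beside 20.8% of all genes tested, and of germling fusion, in which 13 of 21 (61.9%) were higher and 0 lower, beside 18.2%. Over all 34 lists 269 genes were called.

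**Figure D4:**
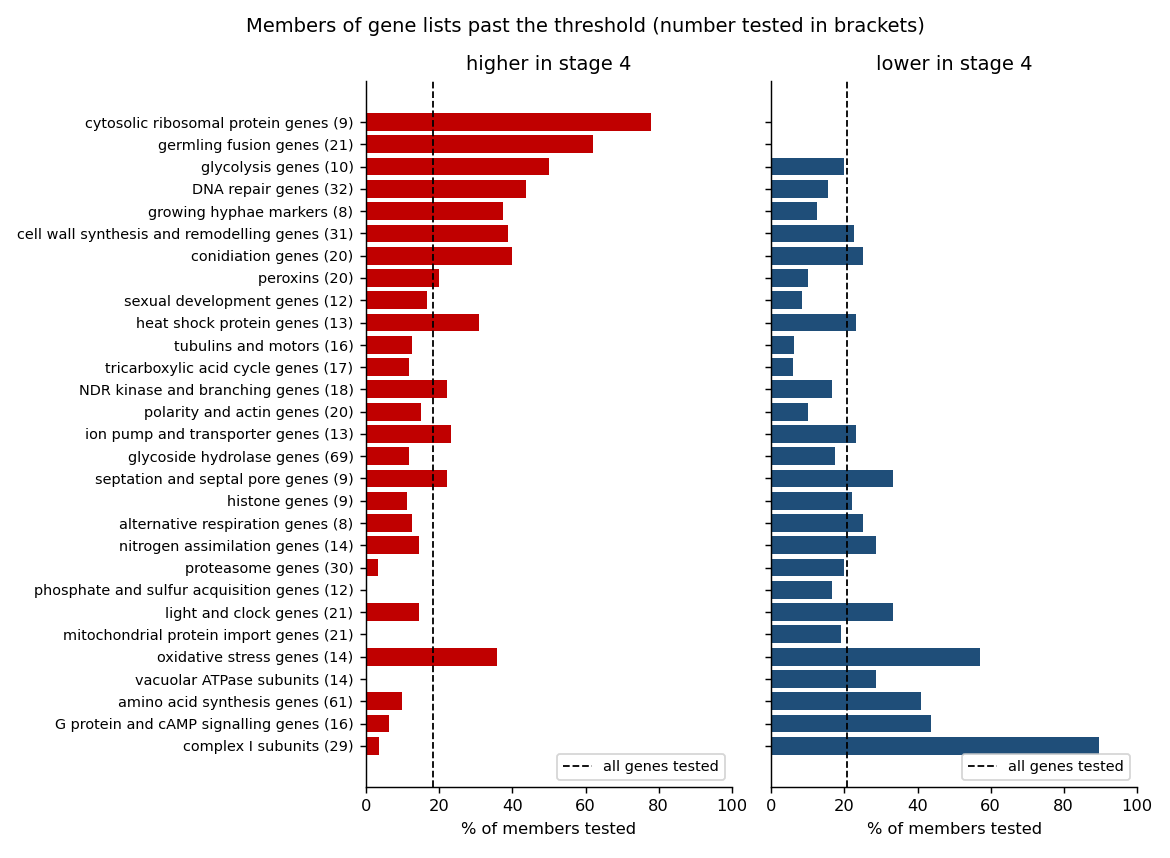
Share of tested members (x axis, %) past the threshold and higher (left, red) or lower (right, blue) in stage 4, for each list with at least 8 tested members (number in brackets) other than the tRNA and mitochondrial genome lists; the dashed line marks all genes tested, 18.2% and 20.8%. Germling fusion and ribosomal protein genes lie far right of the line among higher genes, and complex I among lower genes.

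Complex I (NADH:ubiquinone oxidoreductase) is the entry point of electrons from NADH into the respiratory chain, built in Neurospora from many nuclear-encoded subunits together with subunits of the mitochondrial genome. Its 26 falls ran from −1.10 to −0.21 on the log2 scale, and the list's median was −0.67. nuo10.6 had 29.3, 26.3 and 33.5 CPM in stage 4, against 58.4, 68.4 and 64.4 CPM in stage 3 (−1.10 ± 0.11, adjusted p = 4.49e-06). nuo78, the largest subunit, had 56.6, 57.4 and 62.1 CPM in stage 4, against 94.4, 92.1 and 93.9 CPM in stage 3 (−0.67 ± 0.06, adjusted p = 1.61e-06). nuo51, the NADH-binding subunit, had 22.1, 24.4 and 25 CPM in stage 4, against 36.3, 34.5 and 40.5 CPM in stage 3 (−0.64 ± 0.08). In 25 of the 29 members no stage 4 library reached the lowest stage 3 library, beside 26.7% of all genes tested. The exceptions to the fall were nuo17.8, which rose by 0.28, and nuo40 and nuo14.8, with −0.06 and −0.09 and no call.

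Summed over the list, complex I had 861, 825 and 914 CPM in stage 4, against 1217, 1331 and 1251 CPM in stage 3, and 875 to 897 CPM in stage 2. The subunit genes are short (median 1611 bases, against 2306 in all genes tested), as are the genes that stage 3 replicate 2 favoured. Without that library 25 subunits were lower, with a median of −0.68, and over all alternatives but a limit of 2-fold change, which is left out of all such ranges, 24 to 26 were lower. Of 21 protein import genes 4 were lower (19%, beside 20.8%), but 8 without stage 1 replicate 1 and 1 without stage 4 replicate 3. Of 17 genes of the tricarboxylic acid cycle 1 was lower (5.88%, beside 20.8%) and 2 higher (11.8%, beside 18.2%). There was 1 higher without stage 3 replicate 2 or any 1 stage 4 library. Without replicate 1 of stage 1 or of stage 3 there were 4 higher.

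Germling fusion joins young hyphae into a network. Partner cells take turns in sending and receiving a signal, with a MAP kinase module (nrc-1, mek-2, mak-2) and the protein SO at their tips in alternation, a second module for cell wall integrity (mik-1, mek-1, mak-1), and NADPH oxidase. mek-1 had 666, 690 and 711 CPM in stage 4, against 316, 312 and 306 CPM in stage 3 (1.15 ± 0.06, adjusted p = 2.75e-08). so had 302, 305 and 329 CPM in stage 4, against 164, 121 and 157 CPM in stage 3 (1.08 ± 0.10, adjusted p = 3.6e-06). In neither did the libraries overlap, as was so for 1475 of the 1515 genes called higher and, with stage 4 above, for 25.4% of all genes tested. mek-1 and so averaged near their stage 4 level in stage 2, at 686 and 315 CPM.

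The other members that rose were nor-1 (the regulator of the NADPH oxidases, 0.90), ham-5 (the scaffold of the MAK-2 module, 0.88), Prm1 (which acts in the merger of the membranes, 0.77), mak-1 (0.74), ham-7 (0.68), nox-1 (0.58), ham-8 (0.55), ham-10 (0.49), nrc-1 (0.32), ham-6 (0.28) and ham-3 (0.27). The module members did not all change. mak-2 had 239, 245 and 256 CPM in stage 4, against 125, 219 and 207 CPM in stage 3, where replicate 1 was far below the others, and did not pass (0.42 ± 0.21, adjusted p = 0.129). mek-2 and mik-1 had 0.19 and −0.16 with no call. The list summed to 5270, 5354 and 5655 CPM in stage 4, against 3772, 3620 and 3821 CPM in stage 3. The count of 13 was the same without stage 3 replicate 2 and lay between 12 and 16 over the alternatives. These genes are long (median 4177 bases), and the part of length in their count was not tested.

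Set beside the earlier passage from stage 1 to stage 2, which shares no library with this comparison, the 2 lists differed. Of the fusion genes 19 of 21 were higher and 1 lower in stage 2 than in stage 1, where 39.4% of all genes were higher. Of the complex I genes 1 of 29 was higher and 22 lower, where 37.8% of all genes were lower. Among all genes higher in stage 4 than in stage 3, 49.9% had been higher and 34.1% lower in stage 2 than in stage 1. Among those higher by at least 2-fold the order was the other way, with 28.6% higher and 54.5% lower.

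**Figure D5:**
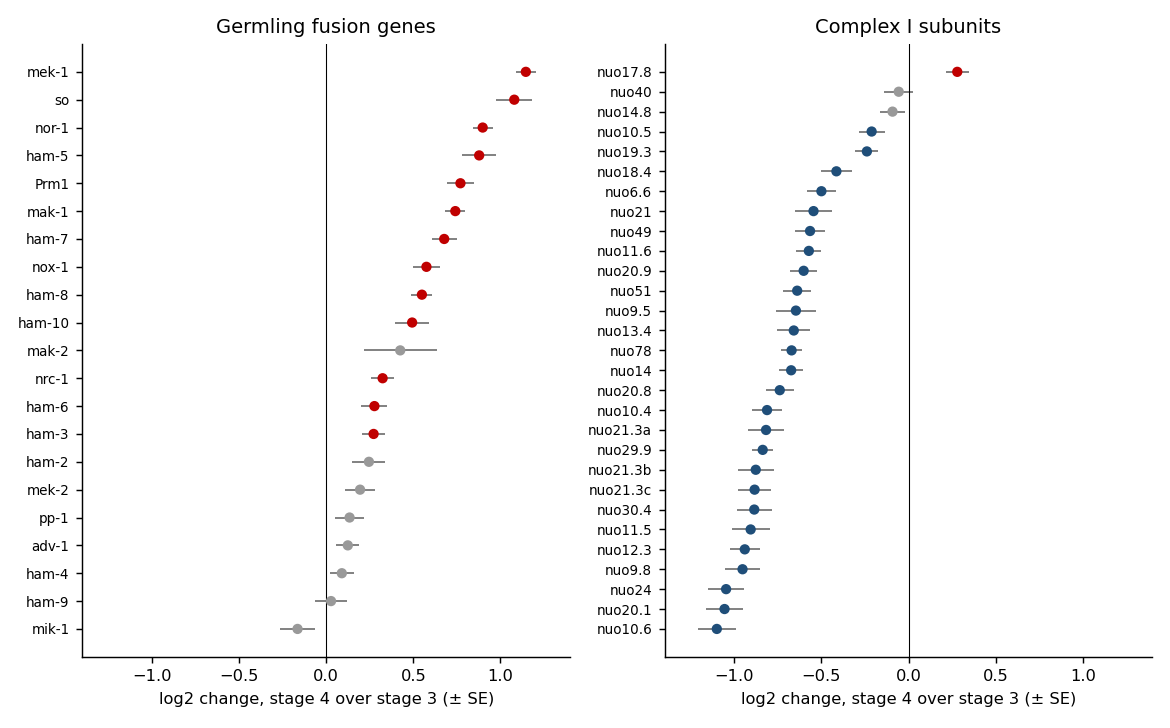
Log2 change in stage 4 over stage 3 with its SE (x axis) for each tested member of the germling fusion list (left) and of complex I (right); red points passed the threshold as higher, blue points as lower, grey points did not pass. All called fusion genes lie between 0.27 and 1.15, and all called complex I genes but nuo17.8 between −1.10 and −0.21.

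Of 61 genes of amino acid synthesis 25 were lower (41%, beside 20.8% of all genes) and 6 higher (9.84%, beside 18.2%), with a median of −0.16. The count of 6 higher ranged from 2 to 9 over the alternatives, with 2 without stage 4 replicate 2 and 3 without stage 1 replicate 3, any 1 stage 2 library or stage 4 replicate 3. Without stage 3 replicate 2 there were 27 lower, and 20 to 31 over the alternatives. cpc-3, the kinase that senses amino acid shortage in general amino acid control, had 96.3, 94.1 and 105 CPM in stage 4, against 187, 191 and 198 CPM in stage 3 (−0.96 ± 0.11, adjusted p = 1.69e-05). cpc-1, the transcription factor of that control, had 2226, 2544 and 2288 CPM in stage 4, against 3012, 3380 and 3114 CPM in stage 3 (−0.43 ± 0.07, adjusted p = 0.000295). Among other members that fell were arg-12 by 0.96, arg-5 by 0.90, arg-10 by 0.89, aro-8 by 0.85 and aro-7 by 0.77. arg-12, the ornithine carbamoyltransferase, had 187, 251 and 213 CPM in stage 4, against 449, 356 and 458 CPM in stage 3. Not all listed genes are enzymes of synthesis: cys-14, which fell by 0.96, is a sulfate permease, and cpc-2, which rose by 0.37, encodes a protein bound to the small subunit of the ribosome.

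Of 9 ribosomal protein genes tested 7 were higher (77.8%, beside 18.2% of all genes) and 0 lower (median 0.26), 7 also without stage 3 replicate 2, and 5 to 8 over the alternatives. crp-10 had 3592, 4113 and 3676 CPM in stage 4, against 3174, 2576 and 2996 CPM in stage 3 (0.38 ± 0.08, adjusted p = 0.00171). The translation factor tef-1 showed the largest rise in CPM of all genes without overlap, with 26776, 30245 and 28235 CPM in stage 4, against 25273, 21230 and 24800 CPM in stage 3 (0.26 ± 0.08, adjusted p = 0.0261). The lowest of these 6 values was stage 3 replicate 2, and without it tef-1 did not pass (0.18, adjusted p = 0.129), nor did cot-3, elongation factor 2 (0.22, adjusted p = 0.126). hsp70-1 rose with or without that library, with 5188, 5752 and 5248 CPM in stage 4, against 3692, 2853 and 3606 CPM in stage 3 (0.67 ± 0.13).

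The largest fall in CPM was that of nmt-1, of thiamine synthesis, with 2788, 3188 and 2873 CPM in stage 4, against 5176, 5471 and 5014 CPM in stage 3 (−0.82 ± 0.08, adjusted p = 2.55e-06). NCU06110 and NCU03600 came next, with log2 changes of −1.18 and −0.55.

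Polar growth and branching are the processes by which these stages are told apart under the microscope. Of 20 genes of polarity and actin 3 were higher (15%, beside 18.2% of all genes) and 2 lower (10%, beside 20.8%), and the median of 0.05 turned to −0.01 with library totals. The polarisome genes bud6 and spa2, which organise actin at the tip, were among those higher. spa2 had 110, 105 and 108 CPM in stage 4, against 75.2, 78.0 and 73.2 CPM in stage 3 (0.51 ± 0.06, adjusted p = 1.68e-05). bud6 had 179, 177 and 188 CPM in stage 4, against 128, 108 and 130 CPM in stage 3 (0.57 ± 0.09). pod-1 and rho-3 fell by 0.35 and 0.26. Actin itself (act) had 1591, 1492 and 1392 CPM in stage 4, against 1700, 1293 and 1427 CPM in stage 3, with overlap and no call (0.02 ± 0.13, adjusted p = 0.934).

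In the list of the NDR kinases and of branching, 4 of 18 genes were higher (22.2%) and 3 lower (16.7%), both near the shares of all genes. Those higher included cot-3, elongation factor 2 (0.37), which did not pass without stage 3 replicate 2. Some members also count in other lists. There were 2 higher without stage 4 replicate 3, and 1 lower with DESeq2 factors and without stage 3 replicate 3 or stage 4 replicate 2. cot-1, the NDR kinase whose loss causes dense branching, had 213, 214 and 220 CPM in stage 4, against 188, 182 and 191 CPM in stage 3 (0.21 ± 0.06, adjusted p = 0.0173). This call was lost with library totals, with the replicate block in the 6 libraries and without stage 4 replicate 3 (largest adjusted p 0.0596). mob-1, which encodes a kinase partner, had 25.3, 24.3 and 25.9 CPM in stage 4, against 14.3, 15.6 and 12.6 CPM in stage 3 (0.83 ± 0.11). dbf2, a kinase of the same family, fell by 0.21 (adjusted p = 0.0382), and did not pass under 9 of 22 alternatives.

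Of 9 genes of septation 3 were lower (33.3%, beside 20.8% of all genes) and 2 higher (22.2%, beside 18.2%). Without stage 3 replicate 2 there were 2 lower and 1 higher. hex-1, which builds the Woronin body that plugs septal pores, had 868, 884 and 1005 CPM in stage 4, against 1513, 1337 and 1444 CPM in stage 3 (−0.64 ± 0.08, adjusted p = 2.64e-05). One of the 2 higher was so, which also counts among the fusion genes, and the other, cdc5, had an adjusted p of 0.046 and lost its call under 13 of 22 alternatives, among them leaving out any 1 library of stages 2 and 3 or replicate 1 or 2 of stage 4.

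Of 31 genes of the cell wall 12 were higher (38.7%, beside 18.2% of all genes) and 7 lower (22.6%, beside 20.8%), with a median of 0.17, and without stage 3 replicate 2 there were 10 higher and 8 lower. Chitin synthases chs-1, chs-3 and chs-5 were higher and chs-6 lower. chs-1 had 250, 261 and 275 CPM in stage 4, against 204, 185 and 197 CPM in stage 3 (0.42 ± 0.09, adjusted p = 0.00154), and chs-3 had 186, 192 and 204 CPM in stage 4, against 144, 149 and 143 CPM in stage 3 (0.41 ± 0.06). The glucan-remodelling gene gel-4 had 347, 394 and 384 CPM in stage 4, against 267, 202 and 255 CPM in stage 3 (0.64 ± 0.10). The cell wall protein gene acw-12 fell by 1.10 at levels under 8 CPM. All 8 markers of growing hyphae, a list made from these classes, were present in every library. They summed to 6517 to 7375 CPM in stage 4 and 7224 to 8333 CPM in stage 3. Of the 8 markers 3 were higher (37.5%, beside 18.2%) and 1 lower (12.5%, beside 20.8%), with 2 lower without stage 1 replicate 1.

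Among signalling genes, 7 of 16 G protein and cAMP genes were lower (43.8%, beside 20.8% of all genes) and 1, the protein kinase A subunit pkac-1, was higher (0.30), with 2 higher without stage 3 replicate 2 or stage 4 replicate 2. The lower ones were 3 receptors (gpr-2, gpr-3 and gpr-4), G alpha genes gna-2 and gna-3, the G beta gene gnb-1 and the G gamma gene gng-1. gnb-1 had 275, 263 and 269 CPM in stage 4, against 382, 373 and 385 CPM in stage 3 (−0.50 ± 0.05, adjusted p = 1.09e-05). gpr-2 had 0.669, 1.09 and 0.985 CPM in stage 4, against 3.16, 3.23 and 2.45 CPM in stage 3 (−1.70 ± 0.27). gna-1, the G alpha gene with −0.14, was not called.

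In the list of light and clock genes 7 of 21 were lower (33.3%, beside 20.8% of all genes) and 3 higher (14.3%, beside 18.2%). Members with roles in carotenoid synthesis, chosen after their values were seen, were among the lower ones: al-1, al-2, al-3 and ylo-1 fell by 0.55, 0.77, 0.65 and 0.75. al-2 had 12.9, 13.4 and 14.2 CPM in stage 4, against 22.2, 23.8 and 23.0 CPM in stage 3 (adjusted p = 2.29e-06), and the blue light receptor vvd fell by 0.46. The clock gene frq had 51.0, 57.4 and 50.9 CPM in stage 4, against 50.3, 53.7 and 50.7 CPM in stage 3, with overlap and no call (0.04 ± 0.09, adjusted p = 0.751). wc-1, the light receptor that acts with wc-2, had 64.6, 31.4 and 29.0 CPM in stage 4, against 64.0, 71.1 and 48.5 CPM in stage 3, and was not called (adjusted p = 0.157).

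Of 14 genes of the oxidative stress list 5 were higher (35.7%, beside 18.2% of all genes) and 8 lower (57.1%, beside 20.8%). Those higher were catalase genes cat-1, cat-3 and cat-4 and the oxidase genes nox-1 and nor-1, which also count among the fusion genes. The other 9 members all had negative log2 changes. The 8 lower included sod-1, sod-2 and 4 glutathione transferase genes. gst-4 had 91.4, 94.3 and 81.6 CPM in stage 4, against 192, 162 and 186 CPM in stage 3 (−1.02 ± 0.08, adjusted p = 7e-07). Of 32 genes of DNA repair 14 were higher (43.8%, beside 18.2%) and 5 lower (15.6%, beside 20.8%), with a median of 0.18. There were 12 higher without stage 3 replicate 2 and 9 with library totals, and 2 lower without stage 4 replicate 3 and 3 without stage 3 replicate 1. mus-18, an endonuclease for ultraviolet damage, had 118, 113 and 128 CPM in stage 4, against 64.7, 62.7 and 65.6 CPM in stage 3 (0.90 ± 0.07, adjusted p = 8.03e-07). mus-40 went the other way, with 27.2, 23.6 and 24.0 CPM in stage 4, against 50.9, 44.6 and 52.6 CPM in stage 3 (−0.99 ± 0.08).

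Of 7 genes of gluconeogenesis and the glyoxylate cycle 4 were lower (57.1%, beside 20.8% of all genes) and 1 higher (2 without stage 1 replicate 1), with acu-9, the malate synthase, at 57.7, 64.0 and 61.4 CPM in stage 4, against 119, 124 and 123 CPM in stage 3 (adjusted p = 1.03e-06), a gene that fell by 1.00. Of 10 genes of glycolysis and fermentation 5 were higher (50%, beside 18.2%) and 2 lower (20%, beside 20.8%), but 0 were higher and 1 lower without stage 3 replicate 2. There were 0 higher without stage 4 replicate 2, and 3 higher without replicate 3 of either stage. With replicate 1 of either stage or stage 4 replicate 3 left out, 0 were lower. Of the 36 tested genes of the mitochondrial genome 7 were lower (19.4%, beside 20.8%) and 0 higher, but 0 were lower and 5 higher without stage 3 replicate 2. There were 13 and 15 lower without replicate 1 or 3 of stage 3, and 1 and 0 without replicate 2 or 3 of stage 4. Stage 3 replicate 2 held 3990 CPM in the list, against 752 and 568 CPM in the other stage 3 libraries and 1097, 398 and 472 CPM in stage 4. NCU16017 shows it, with 9.75, 3.16 and 3.48 CPM in stage 4, against 4.96, 153 and 4.96 CPM in stage 3 (−3.27 ± 1.05 with the library, 0.16 without it). No direction is given for these 2 lists.

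The remaining lists are given as counts, beside 18.2% higher and 20.8% lower over all genes tested. Shares higher and lower were 30.8% and 23.1% for heat shock genes, 23.1% and 23.1% for ion pumps and 20% and 10% for peroxins. They were 12.5% and 6.25% for tubulins and motors, and 11.1% and 22.2% for histones. Shares lower were 28.6% for vacuolar ATPase, 60% for trehalose and glycogen, 16.7% for phosphate and sulfur and 5.88% for tRNA genes. Of 69 glycoside hydrolase genes 8 were higher (11.6%) and 12 lower (17.4%). Among them were gh35-1 and gh76-5, which rose by 1.03 and 0.99, and chit-1, described above. Of 30 proteasome genes 1 was higher (3.33%) and 6 lower (20%), with 11 lower by library totals and 10 without stage 1 replicate 1. Heat shock genes split into 4 higher and 3 lower of 13 (2 higher without replicate 2 of either stage, and 1 lower without replicate 1 of either stage or stage 3 replicate 3), ion pumps and transporters into 3 and 3 of 13, peroxins into 4 and 2 of 20 (1 lower without replicate 1 or 3 of stage 4), tubulins and motors into 2 and 1 of 16 (4 higher without stage 1 replicate 1, and 0 to 2 lower as single libraries were left out) and histones into 1 and 2 of 9. Vacuolar ATPase genes were lower in 4 of 14 (1 without replicate 1 or 2 of stage 4, and 2 without any 1 stage 3 library or stage 2 replicate 1), trehalose and glycogen genes in 3 of 5, phosphate and sulfur genes in 2 of 12 (1 without any 1 stage 4 library or replicate 1 or 3 of stage 3) and tRNA genes in 1 of 17 (0 without replicate 1 of either stage, stage 3 replicate 2 or stage 4 replicate 3), with 0 higher in each (1 vacuolar ATPase gene without stage 3 replicate 2, and 1 phosphate and sulfur gene without stage 2 replicate 3 or stage 3 replicate 1). Nitrogen genes had 2 higher (14.3%) and 4 lower (28.6%) of 14, with 8 lower by library totals. Of 12 genes of sexual development 2 were higher (16.7%, with 1 higher without stage 4 replicate 1) and 1 lower (8.33%). The lower one was poi-2, with 0.171, 0.801 and 0.230 CPM in stage 4, against 5.83, 6.17 and 4.39 CPM in stage 3 (−3.89 ± 0.37, adjusted p = 3.17e-06).

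Some changed genes lay side by side. In 39 places 2 or more neighbouring genes were all called with at least 2-fold change in the same direction. On chromosome III (5203616 to 5205927) con-6 and its neighbour NCU08770 rose, the neighbour with 3.00, 3.11 and 2.85 CPM in stage 4, against 0.379, 0.275 and 0.281 CPM in stage 3 (3.24 ± 0.20). On chromosome IV, gcy-1 and cut-1 (747091 to 752599) both fell, cut-1 with 51.5, 52.2 and 55 CPM in stage 4, against 138, 135 and 127 CPM in stage 3 (−1.33 ± 0.08). A run of 4 genes on chromosome VII (3740687 to 3747488; NCU05764, NCU17268, NCU17269 and NCU17270) was lower at levels below 1 CPM in all 6 libraries, with the last 2 at 0 in all 3 stage 4 libraries. How many such runs a random order of the genes would give was not tested.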

How the data were processed

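Messenger RNA was purified with oligo(dT) and sequenced from stranded libraries, each from tissue of several plates. According to the submitters' processing notes, the authors used CASAVA 1.8.2, HISAT2 2.1.0 and StringTie 1.3.3b. The deposited table holds estimated counts (expected counts) per gene as whole numbers. They derive from coverage, so counting precision is overstated, and 3 counts equal 0.0454 to 0.0728 CPM. Alignment used the setting for reads that are complementary to the transcripts, and alignments of low quality were dropped. A second deposited table holds the authors' own stage ratios and was not used. Of 10592 IDs, 10590 matched the RefSeq table of assembly NC12, 1118 with a symbol.

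The rows NCU17319 and NCU15719 were left out. Genes were filtered with filterByExpr (minimum count 10, total 15), scaled by TMM (factors 0.934 to 1.07) and fitted over all 12 libraries with the edgeR 4.0.16 quasi-likelihood F test (R 4.3.3, limma 3.58.1, 1 coefficient per stage), with Benjamini-Hochberg adjustment over 8334 genes and a threshold of 0.05. Log2 changes are stage 4 over stage 3, and CPM are scaled by TMM. p-values set the difference between stages against the spread between libraries within a stage. That spread was estimated from all 12 libraries (coefficient of variation shared by all genes 10.7%), not from the 6 compared alone. With 3 libraries per stage no test of single values was made outside this fit.

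The naming rule picked the 8 largest rises and falls without overlap (mean of 10 CPM or more in the stage with more). It also took the 4 largest in CPM, 2 members each way per list, and a fixed set of genes. Not all genes picked are described above. Of the fixed set, pma-1 was not called, with log2 changes of −0.28 to −0.14 over 22 alternatives, 2 of which gave a call. The 12 largest changes each way with a symbol, and other list members, were chosen after their values were seen. The comparison, the lists and the rules were chosen with earlier results of these data known. Lists were written by gene symbol, since the reference holds no product names. Alternatives were DESeq2 1.42.0 (factors and test), library totals, the 6 libraries alone, other filters, the ribosomal rows kept or all left out, a replicate block and each library left out. Figures were drawn with matplotlib 3.10.9.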

Additional observations from a re-analysis of the deposited data

How the results depend on the processing

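The number of changed genes stayed within 1.5 times of 3249 under all alternatives but the 2-fold limit. That limit left 499 (220 higher, 279 lower) and 35 of the 269 called list genes. DESeq2's test called 3552 (1821 higher, 1731 lower), its size factors in edgeR 3331, the 6 libraries alone 3179, no filter 3177 and a minimum mean of 1 CPM 3166. The share of calls that were higher was 46.6%, 50.3% with DESeq2's factors and 36.4% with library totals, which moved the median of all genes to −0.05. Leaving out 1 library at a time gave 2734 to 3654 changed genes (1230 to 1766 higher, 1490 to 1888 lower) and 223 to 308 list genes, lowest without stage 4 replicate 1 and highest without stage 1 replicate 1 for changed genes. Without stage 3 replicate 2 the log2 change of NCU16017 was 0.16, against −3.27 with it and −4.02 without stage 4 replicate 1. No other called gene of the 132 named by rule changed sign under any alternative. Replicate numbers did not pair the libraries of stages 4 and 3, whose same-numbered deviations correlated at −0.37, −0.29 and 0.11. Stages 3 and 2 gave −0.10, −0.13 and 0.09, and stages 3 and 1 −0.32, −0.37 and 0.35. Among stages 1, 2 and 4 all same-numbered correlations were positive, from 0.02 to 0.42 (stages 4 and 2: 0.18, 0.12 and 0.42). With the replicate block 3177 genes were called (1475 higher, 1702 lower), and 2759 (1224 higher, 1535 lower) with the block in the 6 libraries alone. Genes below about 1 CPM are limited by depth.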
